A study of Homo sapiens with 5 samples.

Results

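MonoMac6 is a human monocytic cell line, established from an acute monoblastic leukaemia. The values below describe 1 array, that of unstimulated MonoMac6 cells, which was chosen by its title and is 1 of 5 arrays in the series. The other arrays hold RNA of the same line cultured for 12 h with 1 of 4 compounds at 100 nM, added from a DMSO stock: leukotriene B4, leukotriene C4, lipoxin A4 and, last, lipoxin B4, with 1 array per compound. Whether the unstimulated cells received DMSO, and whether the 5 arrays come from separate cultures, is not stated in the sources used here. Because each condition has 1 array, no level has a replicate error and no test was made; the 4 stimulated arrays show only how far a level moved between arrays of the same line.

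Monocytes are blood phagocytes of the innate immune system. They sense microbes through pattern recognition receptors, migrate along chemoattractants, take up particles, kill with oxidants and granule proteins, present antigen and secrete cytokines. Their programme is set by a small group of transcription factors, with PU.1 (the product of SPI1) and the C/EBP family at its centre. Leukaemic monocytic lines are arrested along this path, and the series asks how such cells respond to lipid mediators; the array of unstimulated cells gives the state from which any response would start.

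The array reads 54675 probe sets, 41097 of which carry 1 gene symbol in the platform annotation and together represent 19775 genes. Where a gene had several probe sets, the one with the highest mean over the 5 arrays stood for it. A signal is the brightness summarised over a probe set, on a linear scale, after the arrays had been brought to a common level. The signal of a probe set also depends on how well its probes bind, so the order of genes by signal is an order of signals and not of mRNA amounts. Ranks, highest members of a list and background calls compare signals between genes, and no relative mRNA amount is drawn from them. A gene was called above background where its signal exceeded 137.8, the 90th percentile over 59 measured marker genes of cell types other than monocytes. By this rule 9938 of 19775 genes (50.3%) were above background on the unstimulated array, and 9337 of them were above the same bound on all 5 arrays. The 50.3% is the share beside which each count of list members below is to be read. The ratio of 3' to 5' signal was 1.03 for GAPDH and 1.13 for ACTB on the unstimulated array, against 0.996 to 1.06 and 1.1 to 1.13 on the stimulated arrays. The control probe set for the middle of 18S ribosomal RNA read 186.5 on the unstimulated array, against 912.9, 3069, 365.1 and 1056 on the leukotriene B4, leukotriene C4, lipoxin A4 and lipoxin B4 arrays; its part in the differences given below was not tested.

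The signals spanned the whole scale, and a small share of the genes carried most of the summed signal. The 519 genes with a signal over 10000 (2.62% of the genes) carried 39.2% of the summed signal, and the 2509 genes between 2000 and 10000 carried 39.4%. A further 4047 genes lay between 500 and 2000, and 2863 lay between the background bound and 500. The 9837 genes at or under the bound carried 1.51%. The 100 genes of highest signal alone held 14.4%.

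**Figure D1:**
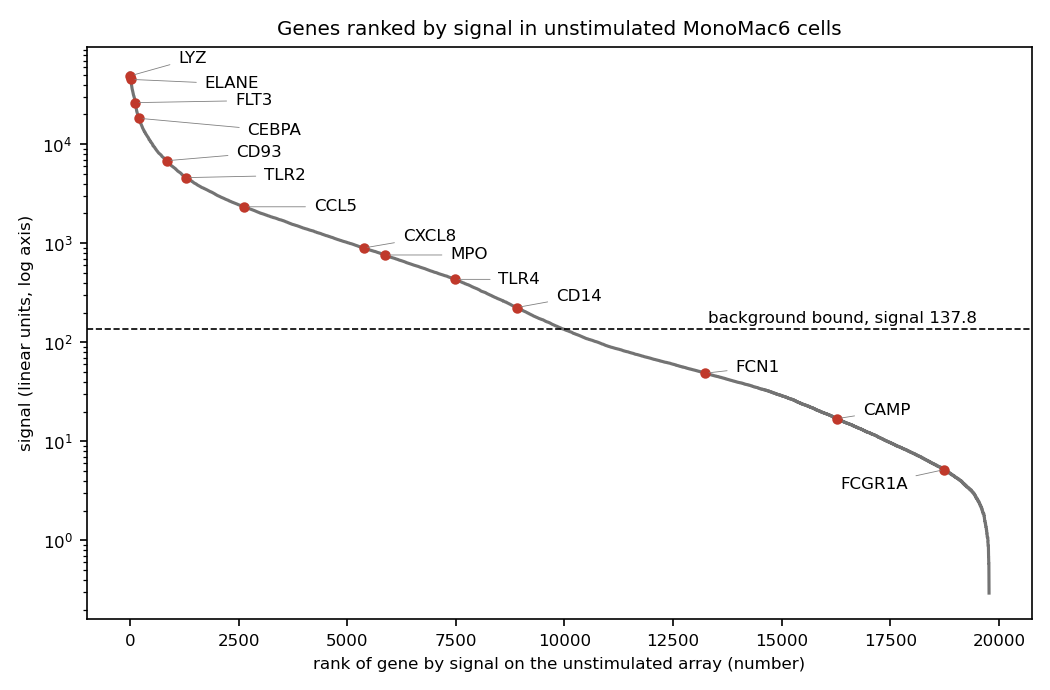
Signal of every gene on the unstimulated array (log axis) against its rank by that signal, with 14 list members marked as red points and the background bound of 137.8 as a dashed line. The curve crosses the bound after 9938 genes. LYZ and ELANE sit at its upper end, CD14 just above the bound, and FCN1, CAMP and FCGR1A under it.

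The label of the cells was checked against their markers. LYZ, which encodes lysozyme, gave 49119 on the unstimulated array and 47389, 48899, 46099 and 36105 on the leukotriene B4, leukotriene C4, lipoxin A4 and lipoxin B4 arrays. Its second probe set gave 41796 on the unstimulated array and 42656, 42348, 41250 and 39697 on the stimulated arrays in the same order. LYZ held rank 7 of all genes. Both probe sets were lowest on the lipoxin B4 array, the second by a narrower margin. CD14, the lipopolysaccharide co-receptor that defines classical monocytes, gave 225 on the unstimulated array and 188, 319, 225 and 195 on the stimulated arrays, listed here and below in the order leukotriene B4, leukotriene C4, lipoxin A4 and lipoxin B4. All 5 values of CD14, which has 1 probe set, lay above the bound and under the stricter bound of 500 used as an alternative. CD33 was not analysed here.

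Of 20 measured monocyte markers, 16 were above background on the unstimulated array (80%), against 50.3% of all genes. The calcium-binding alarmins S100A8 and S100A9 read 43572 and 30433. MNDA, a nuclear antigen of myeloid cells, gave 12582, against 12861 to 15524 on the stimulated arrays. The signalling adaptors FCER1G and TYROBP read 6479 and 525, and VCAN, the proteoglycan versican that classical monocytes secrete, 2670. CSF1R, the receptor for the growth factor that drives monocyte survival, gave 309.8, against 223 to 304. ITGAM, the alpha chain of the complement receptor integrin, was near the bound with 160.1, and the leukotriene B4 array fell under it.

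The 4 markers not above background were FCN1 (48.7), CD163 (19.9), ITGAX (108) and FCGR1A (5.18). FCN1 encodes the lectin ficolin of blood monocytes, CD163 the haemoglobin scavenger receptor of macrophages, ITGAX an integrin chain of macrophages and dendritic cells, and FCGR1A the high-affinity receptor for immunoglobulin G. FCN1, CD163 and FCGR1A stayed under the bound on all 5 arrays. ITGAX read 94.3, 166, 75.9 and 135 on the stimulated arrays and lay above the bound on the leukotriene C4 array.

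Markers of other cells set the bound, so their share above it is fixed by the rule; which of them exceeded it is given here as a description. They were MBP (1326), CXCR2 (442.4), COL1A1 (286.7), CD8A (187.4), KLF1 (170.8) and CD79A (154). COL1A1 exceeded the bound by 1 probe set alone, and its others read 5.479 to 9.49 on the unstimulated array. CD8A, KLF1 and CD79A were not above the bound on all 5 arrays, and CD8A read 56.33 on the lipoxin B4 array. MBP is known for myelin, and several of its probe sets read over 500 on every array. None of the 5 measured dendritic cell markers and none of the 7 epithelial and liver markers exceeded the bound on any array. The T-cell receptor subunits CD3D, CD3E and CD3G were under it as well.

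**Figure D2:**
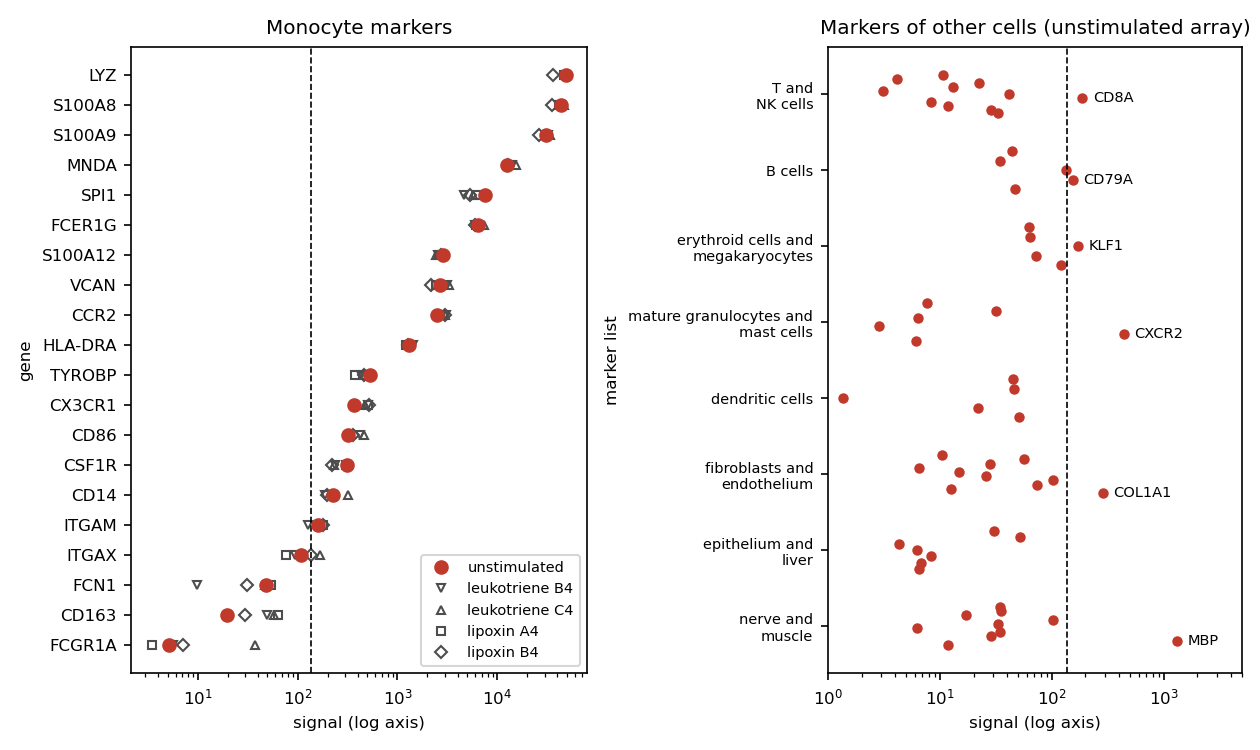
Left, signal (log axis) of the 20 measured monocyte markers, 1 gene per line, on the unstimulated array (red points) and the 4 stimulated arrays (open symbols). Right, signal on the unstimulated array of the measured markers of 8 groups of other cells. Dashed lines mark the background bound of 137.8: 16 monocyte markers lie above it, and the 6 markers of other cells above it are named.

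The genes of highest signal were those of translation, the cytoskeleton and mitochondria. LYZ, ELANE and S100A8, of the list of granule and antimicrobial proteins, stood among them. In order of signal, the first 25 genes were COX1, TMSB4X, ACTB, RPS16, ND4, RPS23, LYZ, RPL37A, RPS6, RPL39, RPS10, TUBA1B, EEF1A1, RPL31, RPL7, RPS12, RPS19, ELANE, TPT1, RPLP1, RPS29, FTL, RPS27, S100A8 and RPL30. COX1 and ND4 are encoded in the mitochondrial genome and gave 52437 and 49253 on the unstimulated array. TMSB4X, an actin-sequestering peptide, gave 51361, against 35920 to 55723 on the stimulated arrays. Of the first 100 genes, 44 encode ribosomal proteins and 5 lie in the mitochondrial genome. For 79 of the 100 the probe set that represents the gene has an identifier ending in _s_at, _x_at or _a_at, which marks probes that match more than 1 transcript or sequence, so their signal may include that of related genes or pseudogenes.

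Most of the first 100 genes kept this place on the other arrays. Of the first 100 genes on the unstimulated array, 94 were also among the first 100 on the leukotriene B4 array, 94 on the leukotriene C4 array, 97 on the lipoxin A4 array and 93 on the lipoxin B4 array, and 89 were so on all 5. Over these 100 genes the median difference, unstimulated minus stimulated on the log2 scale, was 0.03, -0.12, 0.08 and 0.41 in the same order of arrays. A low lipoxin B4 value of a single bright gene therefore stands beside a lower median of all the brightest genes on that array; the part of either in the other was not tested. In RNA of whole cultures, fewer cells of a kind and less RNA per cell cannot be told apart.

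Lists of surface receptors, transcription factors, secreted proteins and metabolic enzymes, 24 in all, hold 15 of the first 100 genes. The list of granule and antimicrobial proteins gave the largest part: LYZ, ELANE, S100A8, SRGN, CTSG, S100A9 and AZU1. The others were the glycolytic enzymes GAPDH, ENO1 and LDHA, the antioxidant and iron genes FTL, PRDX1 and CAT, ALOX5AP of leukotriene synthesis, and B2M, the light chain of class I antigen-presenting molecules.

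The granule and antimicrobial proteins had a median signal of 10258 over 19 measured genes, and 13 of the 19 were among the first 1000 genes by signal. Neutrophil elastase (ELANE), cathepsin G (CTSG), azurocidin (AZU1) and proteinase 3 (PRTN3) are serine proteases and a protease homologue stored in azurophil granules, made at the promyelocyte and monoblast stages. ELANE gave 45206 on the unstimulated array and 43148, 47560, 41931 and 33380 on the stimulated arrays. CTSG gave 33259, against 32204, 37541, 30861 and 24572, and AZU1 30087, against 27411, 29697, 26485 and 21281. PRTN3 gave 9439, against 7810, 7920, 8541 and 7573. ELANE, CTSG, AZU1 and PRTN3 were lowest on the lipoxin B4 array, PRTN3 by a narrow margin (7573 against 7810 on the leukotriene B4 array). The unstimulated array lay inside the range of the stimulated ones for ELANE and CTSG and above it for AZU1 and PRTN3.

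Promoters from the granule and antimicrobial list are shown because its members are 7 of the 15 list members among the first 100 genes. Several of its members are known targets of C/EBP factors. The windows run from 250 bases before to 50 bases after the first start listed for the gene in RefSeq (build GRCh38.p14), and capitals mark matches to the C/EBP pattern TTNCNNAA on either strand. CAMP, the cathelicidin of specific granules, is shown as a member of the same list that was not above background (16.9) and whose window holds no match.
CTSG chr14:24576201-24576500 (minus strand): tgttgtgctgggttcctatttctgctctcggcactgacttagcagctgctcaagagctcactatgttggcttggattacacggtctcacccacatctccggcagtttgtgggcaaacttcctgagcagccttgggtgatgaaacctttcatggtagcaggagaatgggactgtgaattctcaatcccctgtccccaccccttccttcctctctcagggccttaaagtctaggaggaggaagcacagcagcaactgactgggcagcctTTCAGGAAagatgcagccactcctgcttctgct
PRTN3 chr19:840749-841048 (plus strand): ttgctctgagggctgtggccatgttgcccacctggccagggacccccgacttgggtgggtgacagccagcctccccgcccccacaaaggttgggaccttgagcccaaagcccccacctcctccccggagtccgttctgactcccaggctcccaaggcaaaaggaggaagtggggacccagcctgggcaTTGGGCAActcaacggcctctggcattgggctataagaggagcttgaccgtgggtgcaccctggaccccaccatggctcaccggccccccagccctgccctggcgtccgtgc
AZU1 chr19:827587-827886 (plus strand): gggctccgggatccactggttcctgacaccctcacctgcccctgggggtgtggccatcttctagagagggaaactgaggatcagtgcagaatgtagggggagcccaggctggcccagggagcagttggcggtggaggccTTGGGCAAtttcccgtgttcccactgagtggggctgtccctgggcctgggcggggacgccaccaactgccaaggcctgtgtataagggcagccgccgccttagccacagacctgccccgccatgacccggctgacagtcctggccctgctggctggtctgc
S100A8 chr1:153391139-153391438 (minus strand): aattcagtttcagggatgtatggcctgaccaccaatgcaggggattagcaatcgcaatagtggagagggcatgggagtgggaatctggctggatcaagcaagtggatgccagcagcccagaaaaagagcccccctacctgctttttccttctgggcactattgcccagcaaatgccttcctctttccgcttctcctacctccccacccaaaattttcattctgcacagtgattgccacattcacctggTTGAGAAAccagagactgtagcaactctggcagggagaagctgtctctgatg
S100A9 chr1:153357604-153357903 (plus strand): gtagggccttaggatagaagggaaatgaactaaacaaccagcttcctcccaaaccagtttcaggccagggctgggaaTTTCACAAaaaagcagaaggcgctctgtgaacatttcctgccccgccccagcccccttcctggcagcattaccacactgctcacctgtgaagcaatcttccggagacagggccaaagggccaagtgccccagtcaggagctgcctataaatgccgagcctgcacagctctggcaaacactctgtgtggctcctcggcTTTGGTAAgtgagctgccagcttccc
CAMP chr3:48223245-48223544 (plus strand): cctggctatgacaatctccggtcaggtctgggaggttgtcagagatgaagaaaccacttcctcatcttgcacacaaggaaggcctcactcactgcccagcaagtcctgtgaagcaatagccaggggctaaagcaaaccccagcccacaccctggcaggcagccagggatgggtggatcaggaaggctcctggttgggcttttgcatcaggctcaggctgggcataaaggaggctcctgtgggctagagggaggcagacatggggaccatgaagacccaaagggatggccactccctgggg
Of the 10 members of the granule and antimicrobial list above background with a promoter sequence, 9 (90%) held a C/EBP match. Related genes such as S100A8, S100A9 and S100A12 are counted singly here, so these promoters are not independent. Such a match stood in 25.6% of the 8292 genes above background and 30.1% of the 15384 genes on the array with a promoter. The genes not above background held it in 35.4%, those of the granule list in 2 of 3, those of the pattern recognition receptors in 7 of 8 and those of the chemoattractant receptors in 11 of 15. The PU.1 core GAGGAA, searched on both strands, stood in 6 of the same 10 promoters, against 27% of the genes above background and 2 of the 3 members of this list not above it. In 1 place within the list a C/EBP match and a GAGGAA match share bases, and in the promoters printed here none do. A match is a string of letters and not a measured site.

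The ribosomal protein genes share another feature at the start site. Messages of the translation machinery are known to begin with a run of pyrimidines. The strings CTTTC or CTTTT, read on the gene's own strand within 10 bases of the start, stood in 24 of the 38 ribosomal protein genes of the first 100 with a promoter (63.2%), in 6 of the other 41 (14.6%) and in 5.03% of all genes on the array. RPS16 and RPS23, with signals of 49350 and 49132, are shown as the ribosomal protein genes of highest signal, with these strings in capitals.
RPS16 chr19:39435900-39436199 (minus strand): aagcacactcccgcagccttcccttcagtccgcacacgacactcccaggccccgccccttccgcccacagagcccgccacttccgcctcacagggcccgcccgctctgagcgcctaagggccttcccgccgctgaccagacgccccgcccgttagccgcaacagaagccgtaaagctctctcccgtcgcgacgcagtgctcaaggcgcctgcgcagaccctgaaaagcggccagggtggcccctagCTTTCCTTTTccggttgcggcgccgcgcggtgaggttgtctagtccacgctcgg
RPS23 chr5:82278305-82278604 (minus strand): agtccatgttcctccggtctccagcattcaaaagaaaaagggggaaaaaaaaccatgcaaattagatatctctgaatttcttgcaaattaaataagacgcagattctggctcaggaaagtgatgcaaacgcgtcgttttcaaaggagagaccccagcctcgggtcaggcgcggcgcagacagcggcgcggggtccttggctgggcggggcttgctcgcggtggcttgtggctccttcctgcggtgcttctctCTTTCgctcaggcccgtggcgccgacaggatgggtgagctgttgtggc
The TATA box string TATAAA, 45 to 15 bases before the start, stood in 4 of the 79 promoters found for the first 100 genes (5.06%), in 1.42% of all genes above background and in 4.89% of the genes not above background. It was in 0 of the 38 ribosomal protein genes and in 4 of the other 41 (9.76%).

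Secreted proteins as a class had 64 of 111 measured genes above background (57.7%), near the 50.3% of all genes, and the 5 lists differed widely. With only probe sets whose identifier ends in a plain _at, which measure fewer genes, the count was 42. Granule and antimicrobial proteins had 15 of 19 above background, all 15 on every array. Serglycin (SRGN), the proteoglycan that packs granule contents, gave 41930, against 28934 to 47960 on the stimulated arrays. RNASE2, a ribonuclease of eosinophils and monocytes, gave 19557, against 16223 to 19126. Myeloperoxidase (MPO), the haem enzyme of azurophil granules, gave 762, against 682 to 809.6, and both of its probe sets were above background. DEFA4, CAMP, LCN2 and LTF, most of them products of later, specific granules, were not above background on any of the 5 arrays. LTF is also among the markers of other cells that set the bound.

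Lectins, apolipoproteins and lysosomal proteins had 18 of 20 above background. LGALS1 (galectin), RNASET2, CTSC, CTSB and PSAP were the 5 of highest signal, from 18364 to 6159 on the unstimulated array. CTSC activates the granule serine proteases; it gave 12228, against 11352 to 12989. APOE and LPL, lipid-handling products of macrophages, read 3289 and 1831. CTSZ, a lysosomal carboxypeptidase, varied most within this list: it gave 2010 on the unstimulated array and 2093, 4562, 3442 and 3392 on the stimulated arrays. The leukotriene C4 array was the highest for CTSZ, and the unstimulated and leukotriene B4 arrays were both low. RETN and LGMN were not above background.

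Chemokines had 6 of 18 above background (33.3%), against 50.3% of all genes. The bound from olfactory receptor genes (78.76) gave 10 of 18, against 11512 of all 19775 genes. CCL5, which attracts T cells and monocytes, gave 2337, against 2351 to 3028 on the stimulated arrays. CXCL8, the neutrophil attractant, gave 896, against 896, 1123, 701 and 605. CCL2, the monocyte attractant, gave 769 on the unstimulated array and 727, 1805, 777 and 763 on the stimulated arrays, so that the leukotriene C4 array stood alone above the others. CCL23 gave 533, below its 719 to 809.8 on the stimulated arrays, and CXCL1 208, against 174 to 230. CXCL10, an interferon-induced chemokine, exceeded the bound only on the unstimulated array, with 142 against 79.6 to 128. The 12 chemokines not above background were CCL4, CCL7, CCL20, CCL22, CXCL2, CXCL3, CXCL5, CXCL11, CXCL12, CXCL16, PPBP and PF4.

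Among cytokines and growth factors, 14 of 28 were above background (50%), near the 50.3% of all genes. MIF, a cytokine held in stores within many cells, gave 16366, against 14664 to 16955 on the stimulated arrays. TGFB1 gave 4617, against 3974 to 4634. IL1RN, the natural antagonist of interleukin receptors of the IL1 family, gave 2456, against 2363 to 2657. VEGFB, a vascular growth factor, gave 1915, above its 1039 to 1557 on the stimulated arrays. The inflammatory cytokine genes IL1B and TNF read 1020 and 559, against 1000 to 1144 and 443 to 639, so the unstimulated array lay inside the range of the stimulated arrays for both. IL6 (45.2) and IL10 (7.34) were not above background, nor were IL1A, IL12B, IL15, IL18, LTA, LTB, OSM, LIF, CSF3, HGF, PDGFA and EBI3.

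Complement, coagulation and matrix genes had 11 of 26 above background (42.3%), against 50.3% of all genes. Complement factor D (CFD), the protease that starts the alternative pathway, gave 7344, against 6401 to 8113 on the stimulated arrays. SERPINB1, an inhibitor of neutrophil elastase and cathepsin G, gave 5393, against 5615 to 5936. The metalloprotease inhibitors TIMP1 and TIMP2 read 4786 and 2829, and CHI3L1, a chitinase-like protein, 4227. The complement recognition subunits C1QA, C1QB and C1QC, which mature macrophages make, were not above background, nor were CFB, CFP, F5, F13A1, SERPINA1, THBS1, TIMP3, MMP12, FN1, TGFBI, FCN1 and CHIT1.

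**Figure D3:**
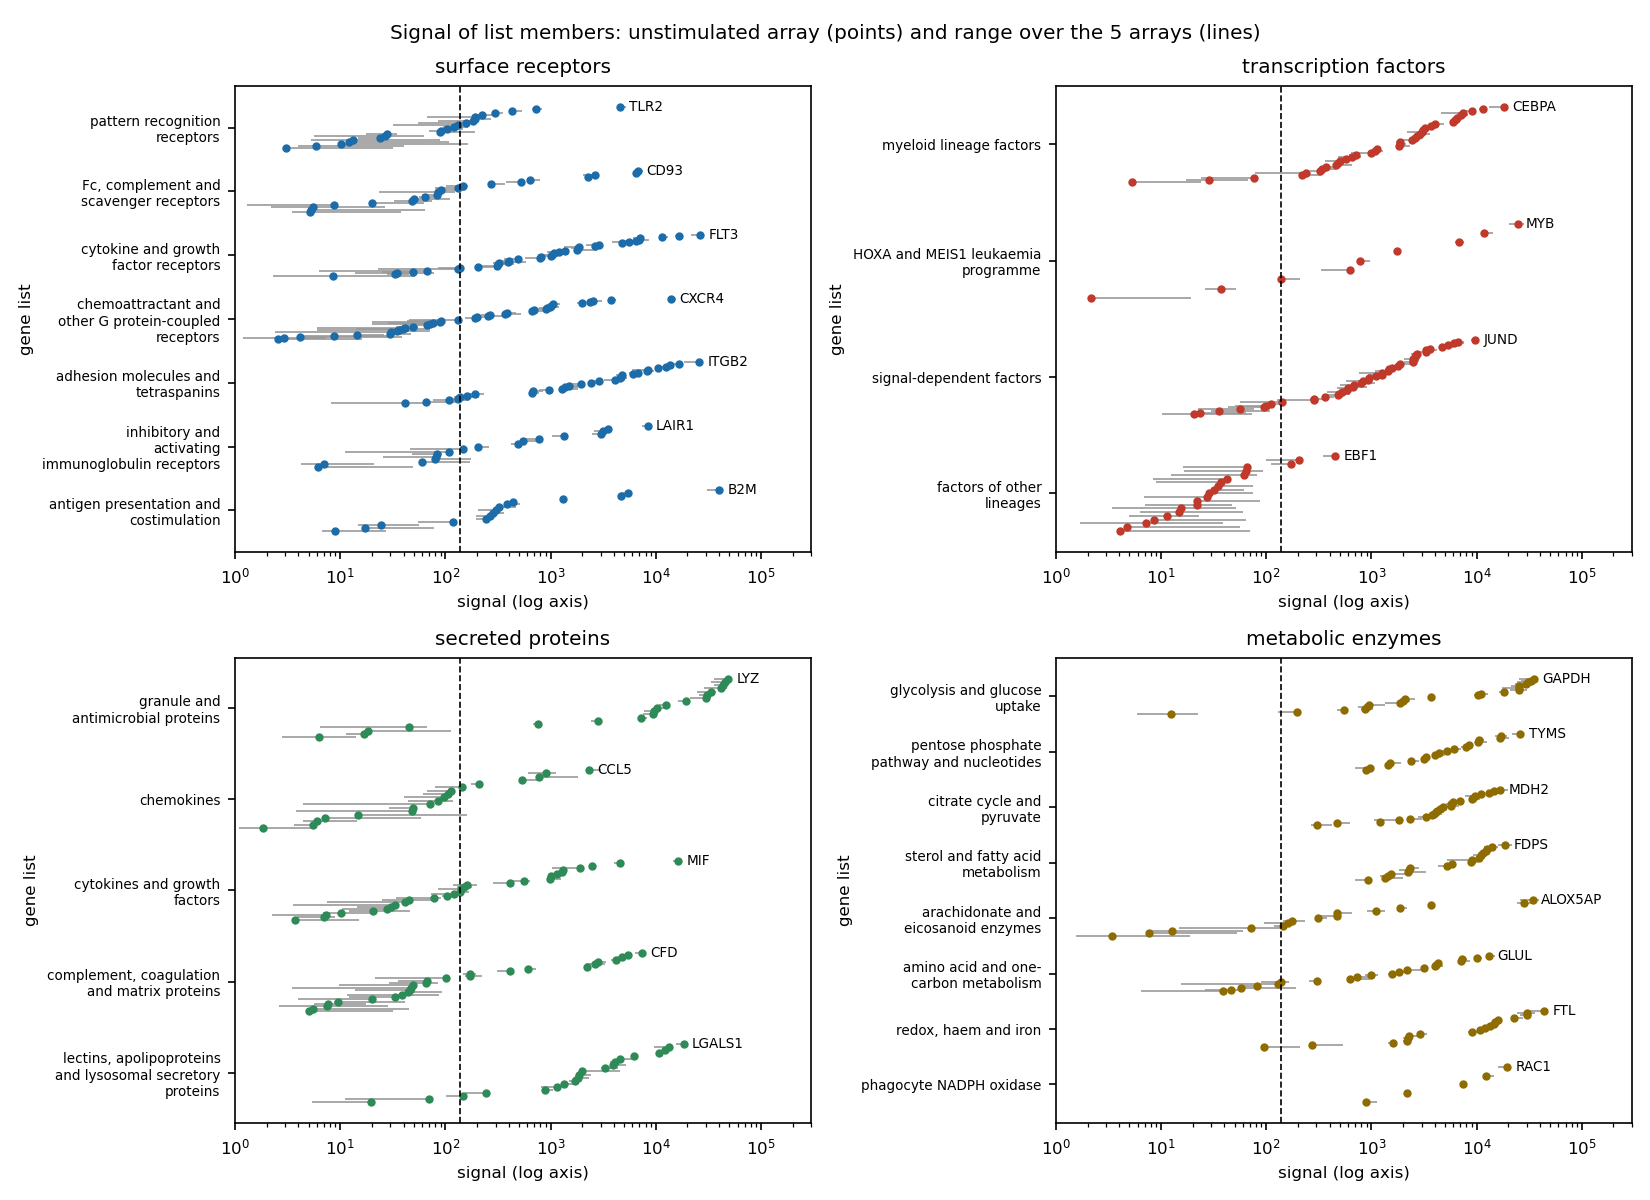
Signal of every measured member of the 24 lists, in 4 panels by class (log axis): points give the unstimulated array, grey lines the lowest to highest of the 5 arrays, and dashed lines the background bound of 137.8. The gene of highest signal in each list is named. Long grey lines occur mainly left of the bound.

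Surface receptors had 108 of 173 measured genes above background (62.4%). The lists of adhesion molecules (24 of 29) and of cytokine receptors (28 of 34) lay above the share of all genes. Pattern recognition receptors had 9 of 22 and Fc, complement and scavenger receptors 8 of 20. Their place against all genes turns with the bound: with one taken from olfactory receptor genes (78.76) they had 14 of 22 and 12 of 20, against 11512 of all 19775 genes.

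Of the receptors for microbial products, TLR2, which senses bacterial lipoproteins, gave 4603 on the unstimulated array and 4961, 5219, 4467 and 4545 on the stimulated arrays, a narrow range. TLR4, which binds lipopolysaccharide together with LY96, gave 432, against 400.4, 532, 464 and 468, and LY96 gave 721, against 659.6 to 823. TLR1, the partner of TLR2, gave 298, against 276.8 to 350.7. The remaining members above background were CD14, CLEC4D (189), TLR6, TLR8 and TLR9. TLR9, the sensor of unmethylated DNA, exceeded the bound only on the unstimulated array, with 189.7 against 70.9, 98.2, 67.4 and 73.6. TLR6 did so too, with 183 against 84.4, 125, 87.9 and 116, and TLR8, a sensor of single-stranded RNA, gave 159, against 55.5, 168, 148 and 105. These 3 genes lay in the band between the bound and 500, which had the largest share of 2-fold ranges of the bands above the bound. TLR3, TLR5, TLR7, TLR10, the lectins CLEC4A, CLEC4E, CLEC5A, CLEC7A, CLEC12A, CD209 and MRC1, and TREM1 and TREM2 were not above background. MRC1, the mannose receptor of macrophages, read 3.03.

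CD93, a receptor of myeloid and endothelial cells that aids the clearance of dying cells, gave 6822 on the unstimulated array, just under its 7174 to 7487 on the stimulated arrays. SCARB1, the receptor for high-density lipoprotein, gave 2650, against 2020 to 2637, and FCGRT, which recycles immunoglobulin G, 2247, against 2174 to 2801. FCGR2A, the widespread low-affinity Fc receptor, gave 633, against 699 to 792. The macrophage scavenger receptors MSR1 (5.28), CD36 (83.8), MARCO and STAB1 were not above background, nor were FCGR1A, FCGR2B, FCAR, the anaphylatoxin receptors C3AR1, C5AR1 and C5AR2, CD163 and AXL. Some list members have probe sets on both sides of the bound, 4 of the 12 members with several probe sets in this list and 136 of 341 over all 4 classes. In this list they were FCGR2A, CR1, SCARB1 and MERTK, all called above background. Such a call holds for the probe set that stood for the gene, the brightest by mean, and not for each of its probe sets. Over all 4 classes, ATF3 and MLLT3 alone among these members were called not above background.

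FLT3, the receptor tyrosine kinase of early progenitors and a common driver of acute myeloid leukaemia, led the cytokine and growth factor receptors. It gave 26323 on the unstimulated array and 27698, 28645, 25773 and 21520 on the stimulated arrays, at rank 115 of all genes. TFRC, the transferrin receptor of dividing cells, gave 16536, against 15361 to 17607. TGFBR1, IL10RB and IFNGR1, signalling chains for transforming growth factor, interleukin-10-type cytokines and interferon gamma, gave 11552, 7011 and 6925, with ranges of 0.19, 0.21 and 0.30 on the log2 scale over the 5 arrays. The receptors for colony-stimulating factors, which sustain myeloid cells, were above background. CSF3R gave 1040, against 762 to 1001, CSF2RA gave 402, against 312 to 362, and CSF2RB gave 315, against 378 to 447. KIT (8.51), IL3RA (132), IL1R1, IL1R2, IL2RG and IGF1R were not above background.

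Chemoattractant and other G protein-coupled receptors had 18 of 36 above background (50%), the same 18 on all 5 arrays. This share is near the 50.3% of all genes. CXCR4, the receptor that holds progenitors in the marrow, gave 14035, against 15645, 13737, 14654 and 13828 on the stimulated arrays. PTGER4, a prostaglandin E receptor, gave 3733, against 3671 to 4154. CCR2 and CCR1, chemokine receptors of classical monocytes, gave 2518, against 2886 to 3054, and 2006, against 1773 to 1955. P2RY2, a nucleotide receptor, gave 2390, against 2250 to 2464. Of the receptors for the added leukotrienes, LTB4R gave 906, above its 651 to 702, CYSLTR1 gave 1044, against 1040 to 1240, and CYSLTR2 was not above background. The formyl peptide receptors FPR1 (70.9), FPR2 and FPR3, of which FPR2 is also known as a lipoxin A4 receptor, were not above background on any array. The other members not above background were CCR4, CCR6, CCR7, CXCR1, CXCR3, CXCR5, CXCR6, CMKLR1, ADORA3, S1PR1, HRH2, P2RY13, HCAR3 and ADGRE1.

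Adhesion molecules and tetraspanins had a median signal of 2449 over 29 genes. ITGB2, the common beta chain of the leukocyte integrins, gave 25703 on the unstimulated array and 23342, 25982, 24393 and 18423 on the stimulated arrays. Of its partners, ITGAL gave 8456, above its 5950 to 7221, whereas ITGAM was near the bound and ITGAX and ITGAD were not above it. ITGA4 and ITGB1, which form a receptor for vascular adhesion molecules and fibronectin, gave 6762 and 8342. The tetraspanins CD63, CD81 and CD53 gave 16696, 12634 and 10435, and CD47, the signal that protects cells from phagocytosis, 13571. ITGA6, ITGB3 and ITGB7 were also not above background.

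Immunoglobulin-type receptors had 10 of 17 above background (58.8%), against 50.3% of all genes. LAIR1, an inhibitory collagen receptor, gave 8386, against 7329 to 8698 on the stimulated arrays. PTPRC, the pan-leukocyte phosphatase CD45, gave 3536, against 3543 to 3853. SIRPA, the receptor for CD47, gave 3169, against 2572 to 3095, and CD300LF and SIRPB1 gave 3022 and 1342. The sialic acid-binding lectins SIGLEC1, SIGLEC5, SIGLEC7, SIGLEC9 and SIGLEC10 and the receptors LILRB2 and LILRB3 were not above background.

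Antigen presentation genes had 11 of 15 above background, all 11 on every array. B2M gave 39804, against 30749 to 41462 on the stimulated arrays. CD74, the invariant chain of class II molecules, gave 5479, against 4645 to 5305, and CD1D, which presents lipids, 4645, against 4882 to 5619. The class II genes HLA-DRA, HLA-DPB1 and HLA-DPA1 read 1312, 389 and 241. Their master regulator CIITA (17.3) was not above background, nor were HLA-DQA1, CD80 and CD274.

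Transcription factors had 80 of 111 measured genes above background (72.1%). The myeloid lineage list had 34 of 37, the signal-dependent list 37 of 44, and the list of factors of other lineages 3 of 21 (14.3%). KLF1 and PAX5 of the last list are also among the markers of other cells that set the bound. CEBPA, which commits progenitors to the granulocyte and monocyte path, gave 18296 on the unstimulated array and 14965, 16186, 16506 and 13097 on the stimulated arrays. ID2, an inhibitor of helix-loop-helix factors, gave 11391, against 10422 to 11862. CEBPB, which drives monocyte survival and inflammatory genes, gave 9092, against 9049, 9418, 9080 and 7587. SPI1 gave 7471 on the unstimulated array and 4630, 5683, 6157 and 5315 on the stimulated arrays. For both CEBPA and SPI1 the unstimulated array was the highest of the 5, by a margin smaller than 2-fold.

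RUNX2 gave 7032, against 7104 to 8192, and IRF8, required for monocyte development, gave 5988, below its 6604 to 6964. KLF4, which promotes monocyte differentiation, gave 1084, against 1128 to 1293. GFI1, a repressor that favours granulocytes, and GATA2, a factor of stem and progenitor cells, read 2736 and 485, and GATA2 moved by no more than 0.08 on the log2 scale. CEBPE, the factor of late granulocyte maturation, gave 240.4 on the unstimulated array and 114, 151, 78.3 and 146 on the stimulated arrays. Its range was the widest of all 379 list members above background on the unstimulated array, a choice that favours genes high there. IRF4 (77), MAF and TAL1 were not above background.

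The list of the HOXA and MEIS1 leukaemia programme, which holds proto-oncogenes of acute myeloid leukaemia, could be read for 9 of its 20 genes. Of these, 6 were above background (66.7%), against 50.3% of all genes. The other 11 genes were not analysed, and HOXA2 was the only HOXA gene measured, so the HOXA genes themselves were largely not assessed. MYB, which sustains self-renewal of progenitors, gave 24505 on the unstimulated array and 25023, 25949, 27953 and 20421 on the stimulated arrays. MYC gave 11671, against 12112 to 14284. The HOX cofactors PBX3 and MEIS1 gave 6733, against 6286 to 7548, and 1736, against 1758 to 1842. MEF2C gave 782, below its 881 to 966. KMT2A, the histone methyltransferase that acts upstream of HOX genes, gave 626, above its 461, 426, 426 and 334, with 6 of its 11 probe sets above the bound. HOXA2, MLLT3 and EYA1 were not above background by the probe set that stood for the gene, although 1 of the 3 probe sets of MLLT3 exceeded the bound.

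Of the factors that respond to signals, JUND, XBP1, ATF4, NFE2L2 and HIF1A had the highest signals, from 9661 to 4726. XBP1 and ATF4 act in the stress response of the endoplasmic reticulum, NFE2L2 in the response to oxidants and HIF1A in the response to low oxygen. HIF1A and NFE2L2 were lower on the unstimulated array than on each stimulated one, HIF1A with 4726 against 5962, 5796, 5991 and 5731 and NFE2L2 with 5353 against 6709, 6153, 6522 and 6525. FOS gave 3316, against 3110 to 4224, and the NF-kappaB genes NFKB1 and RELA gave 1473, against 1548 to 1675, and 1794, against 1683 to 1922. RELB gave 281 on the unstimulated array and 125, 199, 232 and 203 on the stimulated arrays, where the leukotriene B4 array fell under the bound. STAT4, FOSB, ATF3, the immediate-early receptors NR4A1, NR4A2 and NR4A3, and FOXO1 were not above background by the probe set that stood for the gene, although 1 of the 3 probe sets of ATF3 exceeded the bound.

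The 3 factors of other lineages above background were EBF1 (450.5), FOXA1 (204) and KLF1 (171). EBF1, known for B cells, was above the bound on all 5 arrays, against 349 to 488 on the stimulated ones, in 3 of its 4 probe sets. FOXA1, known for epithelia, gave 143, 137, 99.2 and 120.5 on the stimulated arrays and was above the bound on 2 of the 5 arrays. Those not above background were PAX5, LEF1, GATA1, GATA3, TBX21, FOXP3, SOX2, NANOG, MYOD1, PDX1, SOX10, NKX2-1, NKX2-5, CDX2, FOXA2, TBX5, PAX6 and OLIG2.

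Metabolic enzymes were the class with the largest share above background, 127 of 138 measured genes (92%), and 56 of the 138 were among the first 1000 genes by signal. Glycolysis and glucose uptake had 19 of 20 above background. GAPDH gave 35403, against 25211 to 37574 on the stimulated arrays, ENO1 32908, against 26482 to 35857, and LDHA 30557, against 23975 to 36601. LDHB and PGK1 read 29442 and 25500. The glucose carriers SLC2A3 and SLC2A1 read 862 and 544, and the hexokinases HK2 and HK1 2088 and 1987. HK3, the hexokinase typical of mature myeloid cells, was not above background (12.4).

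All 18 measured genes of the pentose phosphate pathway and of nucleotide synthesis were above background on every array. TYMS, which makes thymidylate for DNA, gave 26017, against 21705 to 28416 on the stimulated arrays. TALDO1 and TKT, of the non-oxidative branch, gave 16968, against 15076 to 19366, and 16823, against 15929 to 20393. RRM2, a subunit of ribonucleotide reductase, gave 10594, against 10068 to 11763, and IMPDH2, of guanine nucleotide synthesis, 10307, against 10495 to 12657.

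The citrate cycle list was complete as well, with 23 of 23. MDH2, MDH1, IDH1, ACLY and IDH2 had the highest signals, from 16819 to 9552. ACLY exports citrate carbon for lipid synthesis; it gave 11019, against 9875 to 11281. OGDH, the oxoglutarate dehydrogenase subunit, gave 1815 on the unstimulated array, above all of its stimulated values of 1383, 1421, 1296 and 1065. PC, pyruvate carboxylase, gave the lowest signal of the list, 302, against 266 to 422.

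Sterol and fatty acid metabolism had 18 of 18 above background with a median signal of 7120. FDPS, of isoprenoid synthesis, gave 18685, against 16061 to 21477. SCD, which desaturates fatty acids, gave 14033, against 11631 to 15822, and SQLE, of cholesterol synthesis, 11555, against 10613 to 12048. HADHB and ELOVL5 read 12453 and 12216. FASN, fatty acid synthase, gave 9069 on the unstimulated array and 5696, 6453, 7375 and 5267 on the stimulated arrays, and SREBF1, the factor that controls lipid synthesis genes, gave 1259, against 893, 763, 988 and 1046. Both were highest on the unstimulated array, with ranges of 0.78 and 0.72 on the log2 scale, under 2-fold.

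Enzymes of arachidonate metabolism had 11 of 15 above background. ALOX5AP, which hands arachidonic acid to 5-lipoxygenase, was at rank 62 of all genes, and PTGES3, a co-chaperone with prostaglandin E synthase activity, gave 28420, against 24220 to 34969. LTA4H gave 3683, against 3753 to 3940, PLA2G4A, the phospholipase that frees arachidonic acid, 1870, against 1848 to 2178, and HPGD, which breaks down prostaglandins, 1113, against 901 to 1347. ALOX5 itself was near the bound at 143. ALOX12, ALOX15, PTGES and HPGDS were not above background.

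In amino acid and one-carbon metabolism 16 of 21 were above background. GLUL, glutamine synthetase, gave 13187, against 13350 to 14995, and MTHFD2, a mitochondrial folate enzyme of proliferating cells, 10113, against 10328 to 11165. MTHFD1, ODC1 and SHMT2 read 7201, 7134 and 4329. The enzymes that activated macrophages use to consume arginine and tryptophan, NOS2 (81.3), ARG1 (39.1) and IDO1 (130.5), were not above background, nor were KYNU and SHMT1. NOS2 and IDO1 exceeded the bound from olfactory receptor genes (78.76), with which 18 of 21 were above, against 11512 of all 19775 genes.

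Redox, haem and iron genes had 17 of 18 above background and a median signal of 11411. FTL, the ferritin light chain, gave 43797, against 43492, 45751, 41494 and 29995 on the stimulated arrays. PRDX1 and CAT, which remove peroxides, gave 29962, against 24451 to 35566, and 29856, against 25598 to 30046. GPX1 and PRDX3 read 22627 and 15896. SOD2, the mitochondrial superoxide dismutase that inflammatory signals induce, gave 272 on the unstimulated array, below all of its stimulated values of 432, 446, 350.2 and 539. HMOX1, haem oxygenase, was not above background (95.4). Of the phagocyte NADPH oxidase, which makes superoxide, all 5 measured subunits and GTPases were above background on every array: RAC1 with 19613, RAC2 with 12334, CYBA with 7432, NCF4 with 2173 and CYBB with 895.

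**Figure D4:**
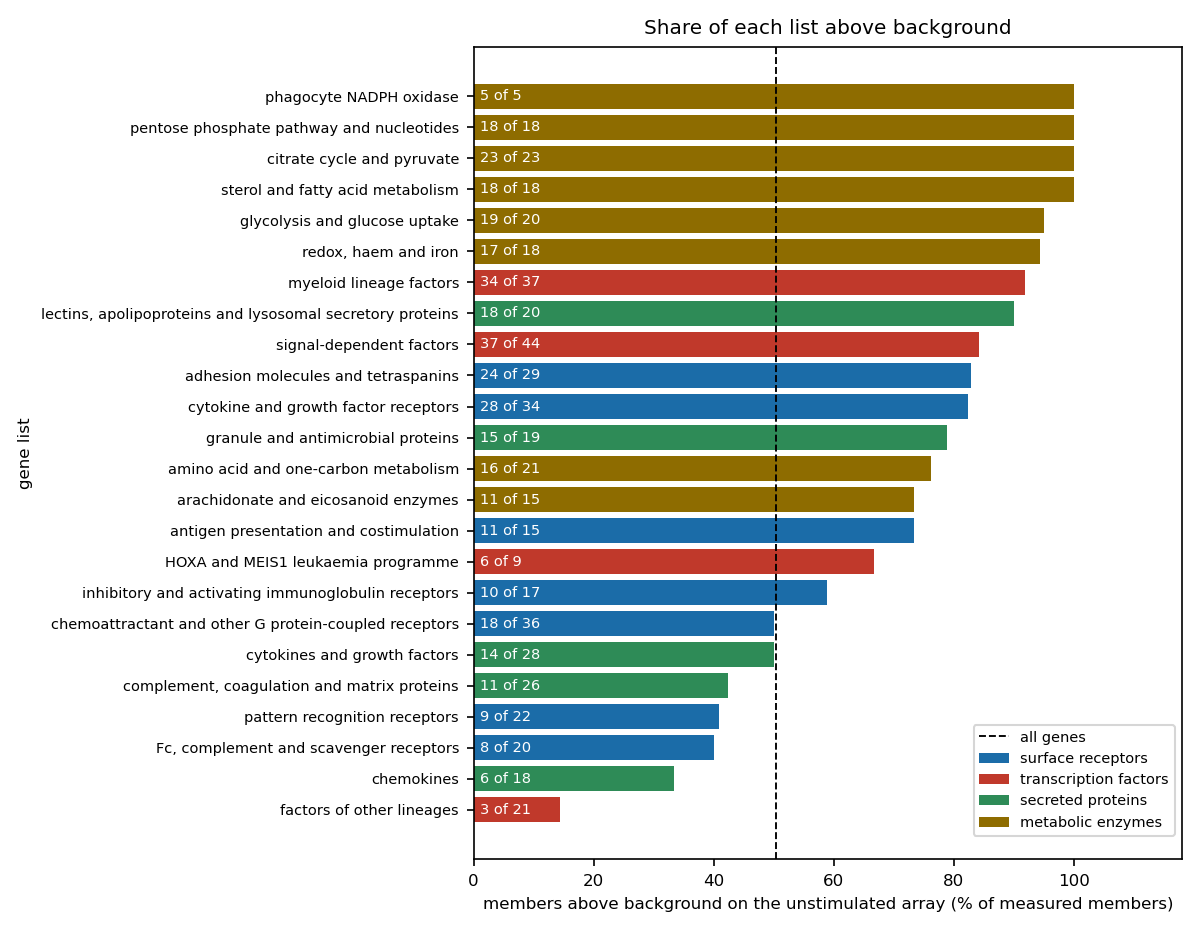
Bars give the percentage of each list's measured members that were above background on the unstimulated array, with the counts in white; colours give the class and the dashed line the 50.3% of all 19775 genes. Metabolic lists fill the uppermost rows, up to 23 of 23, but amino acid metabolism (16 of 21) and arachidonate enzymes (11 of 15) lie lower, among lists of other classes. Chemokines (6 of 18) and factors of other lineages (3 of 21) fill the lowest rows.

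Most levels on the unstimulated array were close to those on the stimulated arrays. Across genes above background, Spearman's rho between the unstimulated array and each stimulated array was 0.987 to 0.991, a description over genes that share probes and chip design and are not independent. Of the 9938 genes above background, 373 (3.75%) had a range of at least 2-fold over the 5 arrays. This share fell with signal. It was 11.5% of genes between the bound and 500, 0.89% between 500 and 2000 and 0.359% between 2000 and 10000, and no gene over 10000 reached 2-fold. The first 10 genes by signal gave 47733 to 52437 on the unstimulated array and 33742 to 36654 on the lipoxin B4 array. Whether an upper limit of the signal narrowed the ranges of the brightest genes was not tested. The count depends on the dim end of the scale and on the filter. A bound of 500 left 45 genes. Averaging all probe sets per gene gave 660 at the same bound, and 1397 with the bound recomputed from those averages (57.61). Filtering on the mean over the 5 arrays instead of the unstimulated array gave 220. The filter on the unstimulated array favours genes high on it. Of the 373 genes, 226 were highest and 18 lowest on that array, against 95 and 33 of the 220.

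Of the 379 list members above background, 10 had a range of at least 2-fold: CCL2, CEBPE, CTSZ, EPAS1, FOXA1, LILRB1, RELB, TLR6, TLR8 and TLR9. Apart from CCL2 and CTSZ, described above, these had signals under 500 on the unstimulated array. EPAS1, a hypoxia factor, gave 141, against 143, 65.4, 116 and 56.7 on the stimulated arrays, and LILRB1, an inhibitory receptor for class I molecules, gave 146, against 131, 106, 108 and 46.1. The median range of the list members above background was 0.33 on the log2 scale. All these members were chosen by the unstimulated array, which favours genes high on it. TLR6 and TLR9 exceeded the bound on that array alone, whereas CTSZ was lowest on it.

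Few genes lay outside all 4 stimulated arrays on the unstimulated array. Of the 9938 genes, 5 (0.0503%) were at least 2-fold above all 4 stimulated arrays and 1 (0.0101%) was at least 2-fold below all of them. The direction of this split turns with the filter, which kept genes above the bound on the unstimulated array: all 5 higher genes exceeded the bound on that array alone. With genes filtered on their mean over the 5 arrays, 1 was at least 2-fold above and 5 were at least 2-fold below all stimulated arrays. None of the 6 genes chosen by the unstimulated array is a member of a list. The higher ones were B4GALNT3, a sugar transferase, WNT16, a secreted Wnt ligand, RNF122, a ubiquitin ligase, CEACAM5, an adhesion glycoprotein, and MEGF11. B4GALNT3 gave 273 on the unstimulated array and 126, 119, 104 and 133 on the stimulated arrays. The other 4 read 142 to 171 on the unstimulated array. The lower one was CASTOR2, an arginine sensor homologue upstream of the growth kinase mTOR, with 169 on the unstimulated array and 439, 592, 499 and 505 on the stimulated arrays. The number depends on the arrays compared, since it was 13 without the leukotriene B4 array, 20 without leukotriene C4, 15 without lipoxin A4 and 10 without lipoxin B4.

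**Figure D5:**
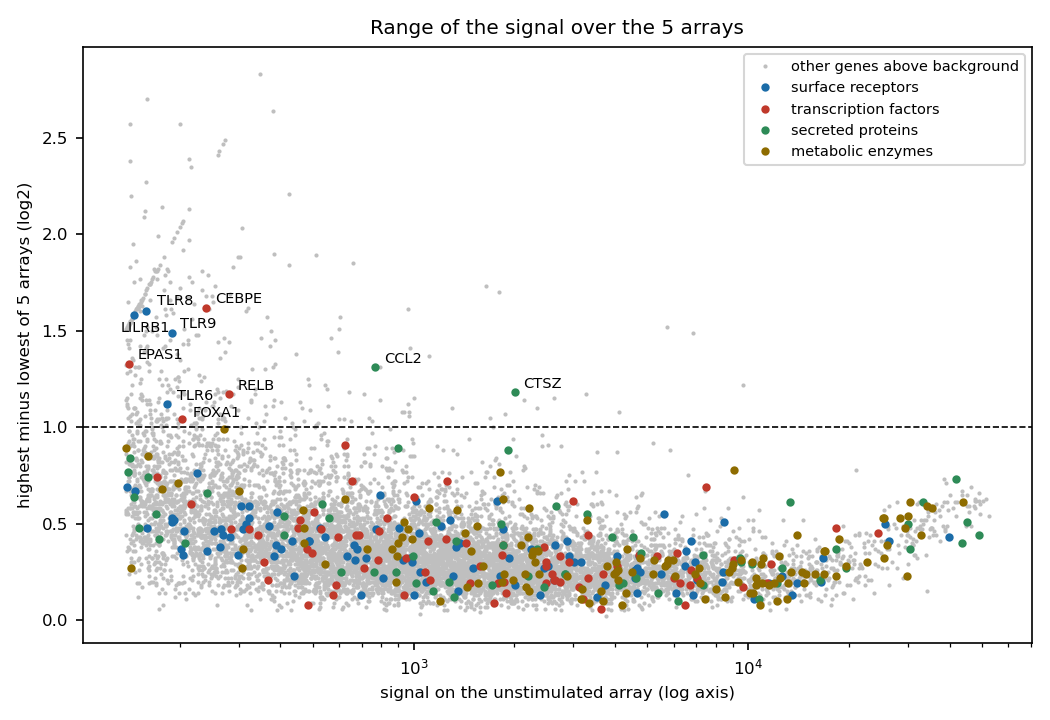
Range of each gene over the 5 arrays (highest minus lowest, log2) against its signal on the unstimulated array (log axis), for the 9938 genes above background; list members are coloured by class and the dashed line marks 2-fold. The 10 list members at or above the line are named, and 8 of them lie at the dim end.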

How the data were processed

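The 5 arrays were grouped by their titles, with 1 array per group and no replicates. The deposited values are linear intensity signals, 1 per probe set; the authors used GCOS 1.4, per the submitters' processing notes, and the signal algorithm is not named in the sources used here. After trimming 2% of probe sets at either end, the mean of the deposited signals was 500.1 on all 5 arrays.

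Probe sets were named from the platform annotation, and 41043 matched the RefSeq gene table (GRCh38.p14). On the log2 scale, 1 shift per array equalised the median of the brighter probe sets (those above the 50th percentile of mean signal). The 62 control probe sets were left out. For ranges over arrays, signals under 48.67, the 50th percentile of mean signals, were set to that floor. With 1 array per group no test or p-value was computed, and the number of arrays limits the precision. Counting was checked on simulated data.

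Members and lists were chosen with earlier results of these data known. Named genes are the first 25 by signal, up to 5 members of each list by signal and those not above background, and list members at least 2-fold outside all 4 stimulated arrays; others were chosen after their values were seen. Alternatives were values as deposited, quantile normalization, other choices of probe set, bounds and floors, and leaving out each stimulated array. Promoters are RefSeq's. Python 3.11.15, pandas 2.3.3, numpy 2.4.6 and matplotlib 3.10.9 were used.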

Additional observations from a re-analysis of the deposited data

How the results depend on the processing

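No paired analysis was possible because each group holds 1 array. The counts above background over all genes and in the 4 classes kept within 1.5 times of their values, except with plain _at probe sets alone, which measure 16782 genes instead of 19775: secreted proteins then numbered 42 with the bound recomputed (73.57) and 37 with it kept at 137.8, and metabolic enzymes 78 with it kept. Single lists moved further: of the 24, 2 moved by over 1.5 times with the bound from olfactory receptor genes, 4 with the 75th percentile of the other cells' markers, 4 with a bound of 500 and 6 with plain _at probe sets. The number of genes with a range of at least 2-fold (373) was 1397 with the mean of all probe sets and its own bound (57.61), 819 with plain _at probe sets and their own bound (73.57), 912 with the bound from olfactory receptor genes (78.76), 1090 with the 75th percentile of the other cells' markers (54.34), 45 with a bound of 500 and 60 with a floor at the 70th percentile (243.9). The number outside all 4 stimulated arrays (6) was 11 with values as deposited and, in the order just given, 47, 28, 36, 38, 0 and 0. In alternatives chosen after seeing the data, the mean of all probe sets with the bound kept at 137.8 gave 660 and 12, plain _at probe sets with that bound 291 and 4, and genes filtered on their mean over the 5 arrays 220 and 6. Lower bounds admit dimmer genes and the higher floor hides their differences by construction; other causes were not tested. Leaving out each stimulated array in turn gave 89 to 93 genes shared among the first 100, 276 to 308 with a 2-fold range and 10 to 20 outside the remaining stimulated arrays. Of 141 named genes, the level moved by more than its standard deviation over the 5 arrays in 0 with values as deposited, in 3 under quantile normalization and in 85 with the mean of all probe sets. Signals near the bound limit every call there: 601 genes above it on the unstimulated array were not above it on all 5.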

Other observations

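Genes of the cell cycle, a list outside the 4 classes, were above background in 27 of 28 measured members, all 27 on every array. PCNA, the sliding clamp of DNA replication, gave 14408 on the unstimulated array, against 13248 to 16307 on the stimulated arrays, and MCM6, a subunit of the replicative helicase, gave 11781, against 9794 to 12910. MKI67, a marker of cycling cells, gave 4612, against 3474 to 4475. CDK1, the kinase that starts mitosis, gave 5286, below its 5979 to 7814. CDKN2A, an inhibitor often lost in cell lines, gave 13667 on 1 of its 3 probe sets, against 12284 to 15707, while the others gave 4254 and 5.185 on the unstimulated array. CCND2 was not above background.

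Of 15 measured cancer-testis genes, normally restricted to germ cells, 3 were above background (20%), against 50.3% of all genes. PRAME gave 2507, against 2517 to 2781 on the stimulated arrays, DDX43 gave 307, against 261 to 369, and MAGEB2 139.7, against 138 to 179.6.

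The genes named from here on were chosen after their values were seen. The mast cell tryptase genes TPSAB1 and TPSB2 were among the first 100 genes. TPSAB1 gave 38275 on the unstimulated array and 34985, 39553, 35775 and 28140 on the leukotriene B4, leukotriene C4, lipoxin A4 and lipoxin B4 arrays, and TPSB2 gave 29896, against 22858 to 30997. All of their bright probe sets end in _x_at, so the copies cannot be told apart, and the other probe set of TPSAB1 gave 13.11. CPA3, another mast cell protease gene, was not above background on any array. HUWE1, a ubiquitin ligase gene, stood at rank 27 through 1 probe set ending in _x_at (41980), while its others gave 4132, 197, 87.07 and 55.18.

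Of the genes with a signal over 2000, 9 had a range of at least 2-fold: ARHGDIA, PTPRO, ANXA2P2, PPP1R9B, ARID3A, HCFC1, DYNC1H1, H2BC5 and CTSZ. All but CTSZ were highest on the unstimulated array, a direction that the choice of genes by that array favours. Among genes with a mean over 2000 across the 5 arrays, 6 had such a range and 5 of these were highest on the unstimulated array. ANXA2P2, an annexin pseudogene read by an _x_at probe set, gave 5711 on the unstimulated array and 2303, 2947, 1997 and 2158 on the stimulated arrays. PTPRO, a receptor phosphatase, gave 6826, against 2427 to 5489.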
